A study of Mus musculus with 2 samples.

Results

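Claudins are the membrane proteins that set what passes between epithelial cells, and 5 of them, Cldn2, Cldn3, Cldn4, Cldn7 and Cldn18, were followed here by gene symbol in droplet-based scRNA-seq of mouse alveolar organoids. They are 5 of the 33 genes named Cldn plus a number among the 27998 genes of the data. The organoids were grown from AT2 cells of Sftpc-CreERT2;R26RTomato mice of the C57BL/6 strain that had received tamoxifen, in which the Sftpc promoter drives the recombinase, and were co-cultured with stromal cells for 2 weeks. PBS was added to the control organoids and IL-1b, an inflammatory cytokine, to the IL-1b organoids, and each condition is 1 library. The labels give this time, whereas a legend of the study names a later day of isolation. The study's methods give an age range for most of its mice but none for these cultures in particular. Cells of 1 library are not replicates, so no p-value or standard error was computed and the 95% intervals cover counting error only. What the preparation of each library added cannot be told apart from the treatment.

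In a tight junction, the extracellular loops of claudins on neighbouring cells meet and close the gap between them, while their cytoplasmic tails bind scaffold proteins such as ZO-1, the product of Tjp1. Some claudins tighten this seal and others form channels through it. In the alveolus, AT2 cells secrete surfactant and can give rise to AT1 cells, the thin cells across which gas is exchanged and which make up most of the surface to be sealed. Cells on the way from AT2 to AT1 pass through a transitional, keratin-rich state that the study calls DATP. The study places a primed AT2 state before it, with low Etv5, Abca3 and Cebpa. It reports that most epithelial cells of the IL-1b organoids were in that primed state. No separate class was named for primed cells here, so the IL-1b AT2-like class may hold them.

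Levels are given as unique molecular identifiers (UMIs) of a gene per 1000000 UMIs (CPM), summed over the cells of a class in a library. The 2 libraries held 33965848 (control) and 41220175 (IL-1b) UMIs, and the 5 claudins took 47731 and 74076 of them. The epithelial cells were clustered without the claudins and other junction genes, and clusters were named from fixed markers. The AT2-like class held 885 control and 1327 IL-1b cells, the transitional-like class 120 and 281, and the AT1-like class 229 and 370. The stromal cells numbered 782 and 475, and 26 and 594 of the cells counted as epithelial stayed unnamed. Of the 26 control cells, 14 formed cluster C12, led by Fabp4 and Lpl. Its Sftpc (2967 CPM) and Krt8 (6.49 CPM) were below those of control stromal cells (3580 and 21.99 CPM), so C12 may not be epithelial. In 13 of the 14 clusters at least 95% of the cells were of 1 library, so a class was filled by different clusters in the 2 libraries. The AT2-like class was cluster C0 in the control and C1, C3 and C5 in the IL-1b library, the transitional-like class was C8 and C6, and the AT1-like class was C7 and C4. The libraries shared 11 barcodes.

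The AT2-like and AT1-like names held for the leading markers, with limits that touch the claudins, while the control transitional-like name was weakly borne out. The AT1 marker Hopx was at 6.56 CPM in AT2-like and 426 CPM in AT1-like control cells, and at 3.07 and 275 CPM in the IL-1b library. All 11 AT1 markers were lower in the IL-1b than in the control AT1-like cells, with a median ratio of 0.555, and 3 of them were over 2-fold lower. For the 8 AT2 markers, the AT1-like level was 13.1% to 64.1% of the AT2-like level in the control library. In the IL-1b library it was 10.2% to 86.6%. In AT2-like cells, 7 of the 8 AT2 markers were lower in the IL-1b than in the control library. There 8 of 9 transitional markers were higher in the IL-1b library, 5 of them at least 2-fold. The transitional-like control cells still held Sftpc at 92130 CPM, near the 99220 CPM of AT2-like control cells. Their Krt8 was at only 450 CPM, against 1025 CPM in the IL-1b transitional-like cells. The median of the single cells' own Krt8 levels was 245 CPM in them (C8) and 214 CPM in the AT2-like control cluster C0.

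The claudins lie on 4 chromosomes (GRCm38, GENCODE M21). Cldn3 (chromosome 5, 134986214 to 134987472, plus strand) and Cldn4 (chromosome 5, 134945119 to 134946934, minus strand) are neighbouring coding genes of 1 exon each with 39279 bases between them, and they point away from each other. Cldn2 lies on chromosome X (139800828 to 139811386, plus strand), Cldn7 on chromosome 11 (69964779 to 69967885, plus strand) and Cldn18 on chromosome 9 (99689461 to 99717267, minus strand). None overlapped another gene on its own strand. Cldn18 has alternative first exons that give a lung and a stomach form, which tags from the 3′ end of the transcript cannot separate.

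The promoters of Cldn2, Cldn4 and Cldn3 are shown because these 3 genes were over 2-fold higher in the IL-1b library in at least 1 class. Each line gives the 250 bases before the RefSeq start site (GRCm38.p6, printed 5′ to 3′ on the gene's strand), and capitals mark the matches to AP-1 and TATA motifs.
Cldn4, chr5:134946935-134947184, minus strand: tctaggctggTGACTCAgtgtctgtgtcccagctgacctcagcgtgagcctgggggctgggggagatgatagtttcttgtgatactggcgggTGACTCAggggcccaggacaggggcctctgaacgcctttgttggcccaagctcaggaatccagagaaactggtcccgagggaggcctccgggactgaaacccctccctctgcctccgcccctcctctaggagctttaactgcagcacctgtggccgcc
Cldn3, chr5:134985964-134986213, plus strand: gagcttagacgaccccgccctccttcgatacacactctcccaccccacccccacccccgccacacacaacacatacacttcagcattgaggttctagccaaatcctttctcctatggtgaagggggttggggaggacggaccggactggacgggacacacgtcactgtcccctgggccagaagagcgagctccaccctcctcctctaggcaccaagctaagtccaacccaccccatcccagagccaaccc
Cldn2, chrX:139800558-139800807, plus strand: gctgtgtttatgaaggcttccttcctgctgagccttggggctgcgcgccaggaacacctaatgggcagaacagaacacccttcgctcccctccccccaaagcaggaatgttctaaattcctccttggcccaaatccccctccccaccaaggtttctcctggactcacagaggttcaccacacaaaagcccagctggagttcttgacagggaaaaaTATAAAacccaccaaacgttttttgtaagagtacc
Motifs were searched on both strands, except the TATA box on the gene's strand only, and they were picked with the sequences in view. The Cldn4 window held the AP-1 motif TGANTCA at 2 places, starting 240 and 158 bases before the start site. Of 32851 RefSeq promoter windows, 6.75% held this motif and 0.338% held it at least 2 times. The Cldn2 window held a TATA box (TATAAA, in 7.59% of windows) 35 bases before the start site and the TEAD motif GGAATG (in 12.6%) 147 bases before it, the latter left in lower case. The Cldn3 window and both Cldn18 windows held none of the 5 motifs searched, which also included the Grhl motif AACNGGTT (in 1.79% of windows) and the NF-kB motif (in 7.25%). The first Cldn7 window held 1 TEAD match, 70 bases before the start site. These matches describe letters and not binding.

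Cldn2 forms channels for small cations and water and marks leaky epithelia. In AT2-like cells it was at 2.59 CPM in the control library (34 UMIs, 95% Poisson interval 1.80 to 3.62) and at 46.1 CPM in the IL-1b library (751 UMIs, 42.9 to 49.5), 17.8-fold higher (95% interval 12.6 to 25.9). In the IL-1b library it was confined neither to 1 cluster nor to a few cells, and its level was 51.4 CPM in C1, 55.7 CPM in C3 and 29.2 CPM in C5. A Cldn2 UMI was found in 3.5% of control and 34.2% of IL-1b AT2-like cells at median depths of 14252 and 11838 UMIs. After each cell was thinned to 4000 UMIs, these shares were 1.36% and 16.8%. The control level in AT2-like cells was below that of the stromal cells (9.14 CPM, 121 UMIs), whereas the IL-1b level stood above the 5.18 CPM of IL-1b stromal cells. The source of the control UMIs was not tested.

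Cldn2 was lower in the transitional-like and AT1-like cells of the IL-1b library than in its AT2-like cells. The transitional-like cells had 0 control UMIs (exact Poisson upper limit 2.12 CPM) and 30 IL-1b UMIs (10.1 CPM). With the control set to 3 counts (1.73 CPM), the IL-1b level was 5.87-fold higher, which is not a lower limit. The log2 ratio of Cldn2 between the libraries in these cells was above 0 in 13 of 15 alternatives. It was -1.09 with genes centered within libraries (27 control cells), -0.85 at a clustering resolution of 2.0 (17 control cells) and 0.65 with each cell thinned. The thinned control again had 0 UMIs set to 3 counts. With so few control cells or UMIs, these values do not show a lower level in the IL-1b library. AT1-like cells had 1 UMI in the control and 11 UMIs (2.23 CPM, 1.11 to 3.99) in the IL-1b library. The AT1-like log2 ratio between the libraries was -0.69 with each cell thinned, which does not show a lower IL-1b level. In the thinning used for shares, only 0 of 229 control and 3 of 370 IL-1b AT1-like cells held a Cldn2 UMI. The transitional-like and AT1-like comparisons between the libraries both stayed under the 100 UMIs asked for a call. Within the IL-1b library, Cldn2 was 20.7-fold lower in AT1-like than in AT2-like cells (ratio 0.0484, 0.0240 to 0.0870) and 4.55-fold lower in transitional-like cells. The AT1-like level was 4.84% of the AT2-like level, while for the 8 AT2 markers the same percentage ran from 10.2 to 86.6. Some small IL-1b clusters outside these classes held more of it, with 31.1 CPM in C10 (7 UMIs) and 25.3 CPM in C11 (15 UMIs), both unnamed, and 36.0 CPM (8 UMIs, 15.6 to 71.0) in C13, an airway-like cluster of 9 cells. In the control library the cycling cluster C9 (39 cells) held Cldn2 at 11.2 CPM (10 UMIs, 5.37 to 20.6), above control AT2-like cells. Cldn18 was lower in IL-1b AT2-like cells with a Cldn2 UMI (543 CPM, 525 to 563) than in those without one (642 CPM, 626 to 657), and Cldn4 was at 16.1 CPM (13.1 to 19.7) against 22.2 CPM (19.4 to 25.2), with intervals that overlapped. Cldn3 was at 545 against 565 CPM and Cldn7 at 161 against 158 CPM in the same cells. Their Sftpc was at 75970 against 76250 CPM, at median depths of 12762 and 11420 UMIs. The split pooled 3 clusters that differed in Cldn2 and also in Cldn18, which was at 566 CPM in C1, 623 CPM in C3 and 651 CPM in C5.

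**Figure D1:**
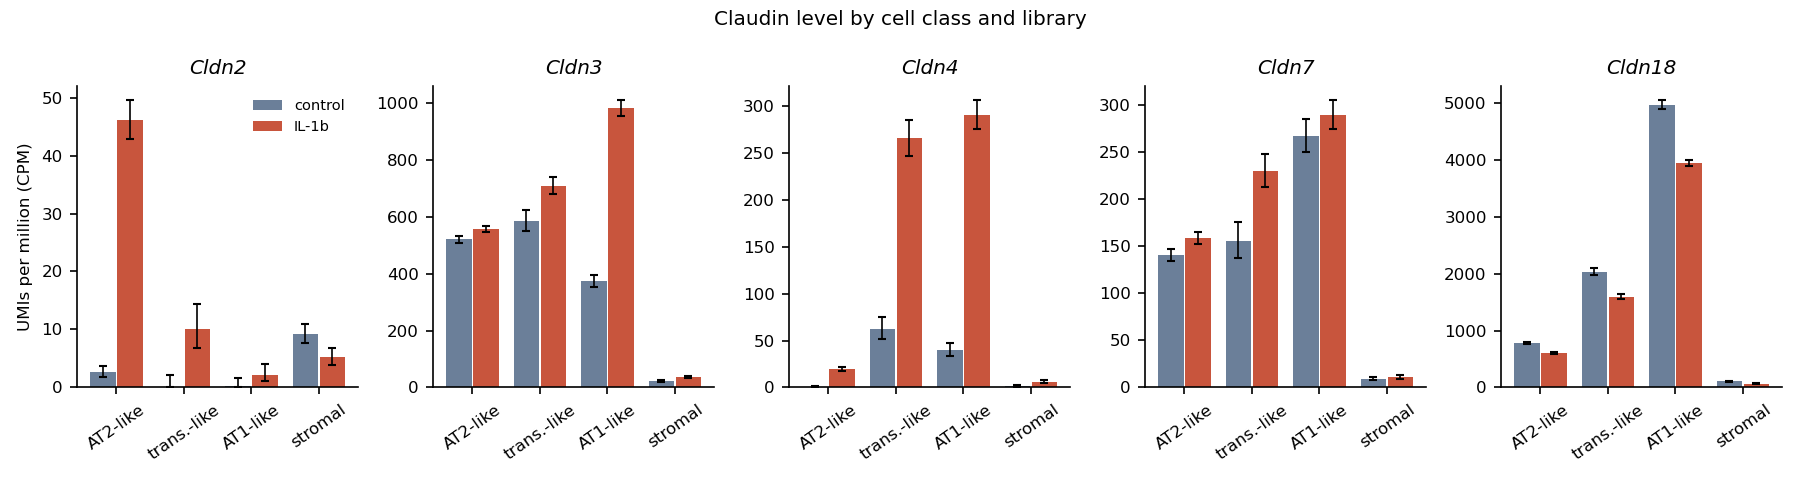
Level of each claudin in CPM (own axis for each gene) in AT2-like, transitional-like, AT1-like and stromal cells, control library in grey-blue and IL-1b library in red, with exact Poisson 95% intervals for counting error. Cldn2 is highest in IL-1b AT2-like cells (46.1 CPM), Cldn3 and Cldn4 are highest in IL-1b AT1-like cells (981 and 291 CPM), and Cldn18 is highest in control AT1-like cells (4965 CPM).

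Cldn4 is a sealing claudin that limits the passage of sodium and is known to increase in injured lung epithelium. It was almost not found in AT2-like control cells, at 0.915 CPM (12 UMIs, 0.473 to 1.60), below the 1.51 CPM of control stromal cells. In IL-1b AT2-like cells it was at 20.01 CPM (326 UMIs, 17.9 to 22.3), 21.9-fold higher (12.3 to 42.8) and above the 6.03 CPM of IL-1b stromal cells. In transitional-like cells it was at 62.7 CPM in the control (109 UMIs, 51.5 to 75.7) and 266 CPM in the IL-1b library (786 UMIs, 247 to 285), 4.23-fold higher (3.46 to 5.22). In AT1-like cells it was at 39.6 CPM (130 UMIs, 33.1 to 47.0) and 291 CPM (1435 UMIs, 276 to 306), 7.34-fold higher (6.13 to 8.86). Cldn4 was thus higher in the IL-1b library in all 3 classes, except in transitional-like cells at a clustering resolution of 2.0.

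The Cldn4 values of 2 classes rested on few cells. In the control transitional-like class, at least 50% of the UMIs came from 3 of 120 cells, and in the IL-1b one from 9 of 281 cells, with up to 72 UMIs in 1 cell. The 3 control cells that fell into the IL-1b AT1-like cluster C4 carried 38 of the 130 control AT1-like UMIs, and without them the control level was 28.7 CPM. When cells that fell into a cluster of the other library were left out, the IL-1b transitional-like level was 254 CPM and the AT1-like level 293 CPM. The transitional-like ratio depended on the clustering. At a resolution of 2.0 only 17 control cells remained in that class and Cldn4 was lower in the IL-1b library (log2 ratio -0.92).

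Within a library, Cldn4 was higher in transitional-like and AT1-like than in AT2-like cells. The study uses Cldn4 as a DATP marker and lists Krt8, Ndrg1, Sprr1a and AW112010 beside it. These were among the markers that named the transitional-like class, so a higher Cldn4 level in that class is in part built into its name. The AT1-like to AT2-like ratio was 43.3 (23.9 to 85.9) in the control and 14.5 (12.9 to 16.4) in the IL-1b library. The transitional-like to AT2-like ratio was 68.6 (37.7 to 137) and 13.3 (11.6 to 15.1). Both control ratios have only 12 UMIs in AT2-like cells beneath them. Over the alternatives the transitional-like ratio ran from 4.69, with each library clustered separately, to 799.9, at a resolution of 2.0, in the control and from 7.07 to 22.2 in the IL-1b library, and the AT1-like ratio ran from 23.4 to 72.5 and from 7.74 to 17.6. Both IL-1b minima came when an unnamed cluster, C2, was counted as AT2-like. The AT2-like level of Cldn4 in the IL-1b library was 6.88% of the AT1-like level, while for the 11 AT1 markers the same percentage ran from 0.901 to 14.0 with a median of 3.13. How much of it is RNA from other cells was not tested.

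A Cldn4 UMI split the transitional-like class unevenly, a split made after its values were seen. In the control library, 18 cells with a Cldn4 UMI had Krt8 at 1564 CPM, Hopx at 152.5 CPM and Sftpc at 27720 CPM. The 102 cells without one had Krt8 at 258 CPM, Hopx at 42.5 CPM and Sftpc at 103300 CPM, while AT2-like control cells had 272 CPM of Krt8 and 99220 CPM of Sftpc. In the IL-1b library, 104 cells with a Cldn4 UMI had Krt8 at 1733 CPM and Sftpc at 36320 CPM, against 551 and 55400 CPM in the 177 cells without one. Sfn, a transitional marker, was 4.6-fold (control) and 2.99-fold (IL-1b) higher in the cells with a Cldn4 UMI. Median depths were 13274 and 13054 UMIs in the control and 10486 and 9382 UMIs in the IL-1b library. In both libraries the cells with Cldn4 thus had the higher summed Krt8 level. Of the 782 Krt8 UMIs of the control class, 400 lay in the 18 cells with a Cldn4 UMI. A single cell held 277 of the 782, so the control difference rests in large part on 1 cell.

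Cldn3 is a sealing claudin. It was found in most epithelial cells, and its AT2-like level was 521 CPM (508 to 533) in the control and 558 CPM (546 to 569) in the IL-1b library. This ratio of 1.07 turned to a log2 ratio of -0.02 when surfactant, mitochondrial and ribosomal protein genes were left out of the totals. In transitional-like cells Cldn3 was at 585 CPM (550.0 to 623) and 710 CPM (680 to 741), a ratio of 1.21. The libraries parted in AT1-like cells, at 374 CPM (353 to 395) in the control and 981 CPM (954 to 1009) in the IL-1b library, 2.63-fold higher (2.47 to 2.80). The median AT1-like cell held 4 Cldn3 UMIs in the control and 11.5 in the IL-1b library, at median depths of 11711 and 11664. Thinned to 4000 UMIs, 69.9% of control and 95.9% of IL-1b AT1-like cells had a Cldn3 UMI, against 8.18% and 13.3% of stromal cells. AT1-like cells therefore held the lowest Cldn3 level of the 3 classes in the control library and the highest in the IL-1b library, with AT1-like to AT2-like ratios of 0.718 (0.675 to 0.763) and 1.76 (1.70 to 1.82).

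Cldn7 binds EpCAM and lies along the lateral membrane as well as in the junction. It varied least, from 140 CPM in control AT2-like to 290 CPM in IL-1b AT1-like cells. In AT2-like cells it was at 140 CPM (134 to 147) and 159 CPM (153 to 165), in transitional-like cells at 156 CPM (138 to 176) and 230 CPM (213 to 248), and in AT1-like cells at 267 CPM (878 UMIs) and 290 CPM (1430 UMIs). The IL-1b to control ratios were 1.13, 1.47 and 1.08, and the last interval held 1 (0.995 to 1.18). AT1-like cells were 1.91-fold above AT2-like cells in the control and 1.82-fold in the IL-1b library, under the 2-fold used for a call. The control ratio ran from 1.54 to 2.15 over 15 alternatives and was past 2-fold in 4 of them.

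Cldn18 is the claudin most closely tied to alveolar cells, and mice that lack it have leaky alveoli. Its level followed the classes in both libraries. In AT2-like cells it was at 784 CPM (769 to 800) in the control and 606 CPM (594 to 618) in the IL-1b library, in transitional-like cells at 2033 CPM (1967 to 2101) and 1595 CPM (1550 to 1641), and in AT1-like cells at 4965 CPM (4889 to 5042) and 3947 CPM (3891 to 4002). AT1-like cells were thus 6.33-fold above AT2-like cells in the control (6.18 to 6.49) and 6.51-fold in the IL-1b library (6.35 to 6.67), and transitional-like cells 2.59-fold and 2.63-fold. The IL-1b to control ratios were 0.773, 0.785 and 0.795, all under 1 and all within 2-fold. The AT2-like ratio came to 1.03 at a resolution of 2.0 and the transitional-like ratio to 1.55 when each library was clustered separately and to 0.491, past 2-fold lower, at a resolution of 2.0. A Cldn18 UMI was found in 100% of AT1-like cells of either library and in 57.3% of control and 60.2% of IL-1b stromal cells. At least 50% of the 1428 control stromal UMIs came from 20 cells, with up to 139 UMIs in 1 cell.

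**Figure D2:**
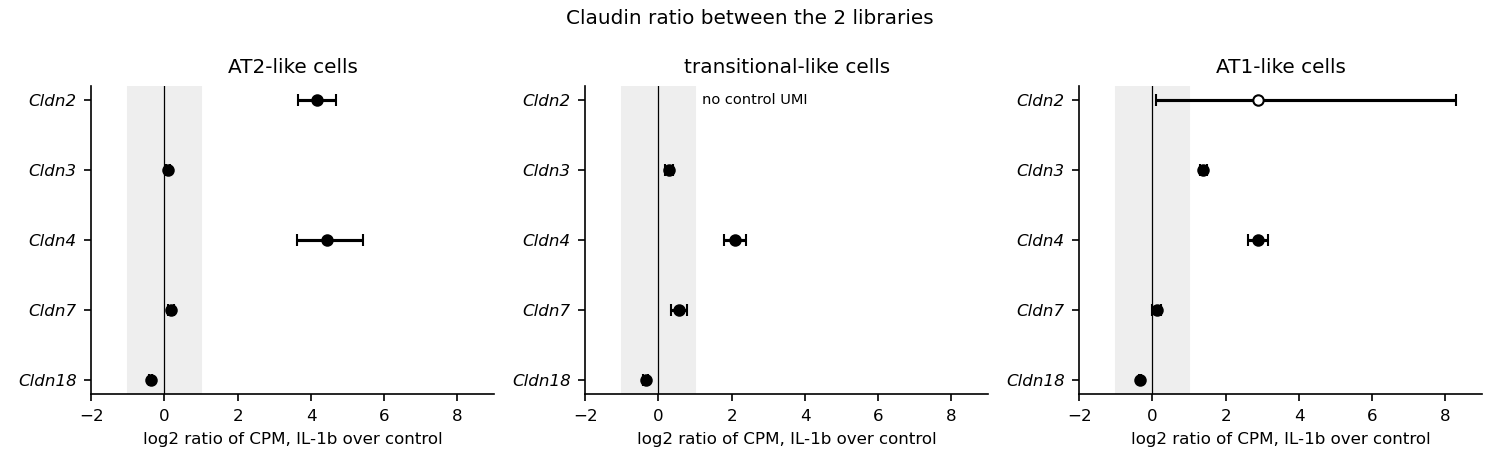
Log2 ratio of the summed CPM, IL-1b over control library, for each claudin in AT2-like, transitional-like and AT1-like cells, with exact 95% intervals for counting error. The grey band marks 2-fold and the open point has under 100 UMIs. Cldn2 and Cldn4 lie beyond the band in AT2-like cells, Cldn4 in all 3 classes and Cldn3 in AT1-like cells, while Cldn7 and Cldn18 lie inside it, all at the clustering resolution of 1.0. The open point, Cldn2 in AT1-like cells, also lies beyond the band (11 IL-1b UMIs and 1 control UMI). Transitional-like Cldn2 has no point because its control count was 0.

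Ordered by level over the 3 classes and 2 libraries, Cldn18 gave the only order in which no neighbouring intervals overlapped, from control AT1-like down to IL-1b AT2-like cells. For Cldn3 the intervals of control transitional-like and IL-1b AT2-like cells overlapped, and for Cldn4 those of AT1-like and transitional-like IL-1b cells. For Cldn7, the AT1-like cells of both libraries overlapped, as did the 3 lowest groups in a chain. For Cldn2 each neighbouring pair overlapped among the 4 groups below IL-1b transitional-like cells. The highest level was 318-fold above the lowest for Cldn4, 8.19-fold for Cldn18, 2.63-fold for Cldn3 and 2.06-fold for Cldn7.

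Read against all genes, the count of claudins past 2-fold was as follows. In AT2-like cells 2 of 5 claudins (Cldn2 and Cldn4) were over 2-fold higher in the IL-1b library and 0 lower, where 5.7% of 9861 genes with at least 100 UMIs were higher and 3.28% lower. In transitional-like cells 1 of the 4 with enough UMIs (Cldn4) was higher, against 5.71% of 5552 genes, and 0 were lower, against 2.22%. In AT1-like cells 2 of 4 (Cldn3 and Cldn4) were higher, against 4.1% of 7665 genes, and 0 were lower, against 2.61%. Between AT1-like and AT2-like cells, Cldn4 and Cldn18 were higher in AT1-like cells in both libraries, against 17.9% of genes in the control and 13.5% in the IL-1b library. In the IL-1b library 1 of 5 tested claudins (Cldn2) was lower in AT1-like cells, against 5.59% of genes. In the control library 0 of 4 were, against 6.49%. Cldn2 had too few UMIs for a call there, at 0.305 CPM in AT1-like and 2.59 CPM in AT2-like cells. The median log2 ratio of all genes was 0.40 and 0.35 in these comparisons, so the claudin ratios stand on a background that was itself shifted toward AT1-like cells. Between transitional-like and AT2-like cells, Cldn4 and Cldn18 were again higher in both libraries (4.49% of genes in the control, 5.42% in the IL-1b library). In the IL-1b library 1 of 5 tested claudins (Cldn2) was lower in transitional-like cells (2.09% of genes). In the control library 0 of 4 were (1.81%), and Cldn2 again had too few UMIs for a call. With 5 members these counts are descriptions.

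Within a class the clusters of 1 library could be set side by side. Across the 3 IL-1b AT2-like clusters Cldn3 ran from 530 to 624 CPM, Cldn7 from 149 to 182 CPM, Cldn18 from 566 to 651 CPM and Cldn4 from 14.8 to 29.6 CPM. Cluster C5, led by Cxcl5 and Pf4, held the highest Cldn3, Cldn4, Cldn7 and Cldn18 and the lowest Cldn2 of the 3. The unnamed cluster C2, with 523 IL-1b cells led by Slc26a4, Stmn1, Tmsb10 and Cd14, lay between the AT2-like and transitional-like IL-1b clusters for Cldn4 (86.6 CPM) and Cldn18 (1232 CPM). Its Cldn2 (10.1 CPM) was at the level of the transitional-like cluster C6 (10.2 CPM), and its Cldn3 was at 760 CPM. When C2 was counted as AT2-like, the log2 ratio of Cldn18 between the libraries in AT2-like cells went from -0.37 to -0.03, and that of Cldn3 from 0.10 to 0.23, while the IL-1b AT2-like level of Cldn4 rose from 20.01 to 37.5 CPM. When C2 was counted as transitional-like instead, that class held 804 IL-1b cells with Cldn4 at 147 CPM, 2.37-fold above the control, and Cldn18 at 1354 CPM, a ratio of 0.680.

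**Figure D3:**
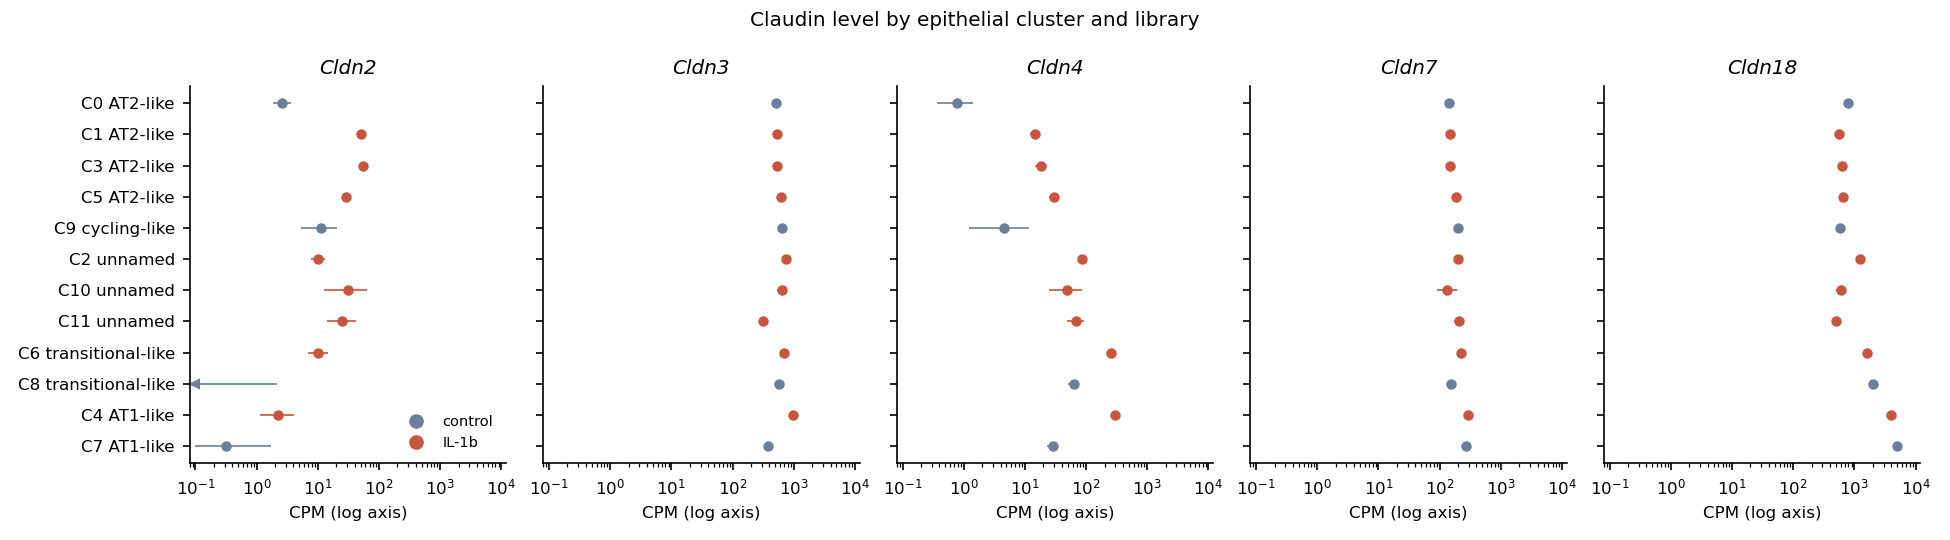
Level of each claudin in CPM (log axis) in every epithelial cluster with at least 30 cells of a library, control cells in grey-blue and IL-1b cells in red, with exact Poisson 95% intervals and an arrow where no UMI was found. The AT2-like clusters are at the top and the AT1-like clusters at the bottom. In the control library Cldn18 goes from 787 CPM in C0 to 5055 CPM in C7. In the IL-1b library it goes from 566 CPM in C1 to 3957 CPM in C4, and the unnamed cluster C11 is lower at 504 CPM. Cldn2 is highest in C1 and C3.

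More claudins were found per cell in the IL-1b library. Such a number rises with the detection of each claudin alone, and whether they occurred together beyond that was not tested. With each cell thinned to 4000 UMIs, at least 3 of the 5 claudins had a UMI in 31.2% of control (exact 95% interval 28.1 to 34.4) and 47.7% of IL-1b AT2-like cells (45.0 to 50.4). These shares were 39.2% (30.4 to 48.5) and 57.7% (51.6 to 63.5) in transitional-like and 49.3% (42.7 to 56.0) and 80.8% (76.4 to 84.7) in AT1-like cells. In stromal cells, which should lack most of them, they were 0.639% and 1.47%. All 5 were found together in 7 of 1327 AT2-like and 1 of 370 AT1-like IL-1b cells.

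**Figure D4:**
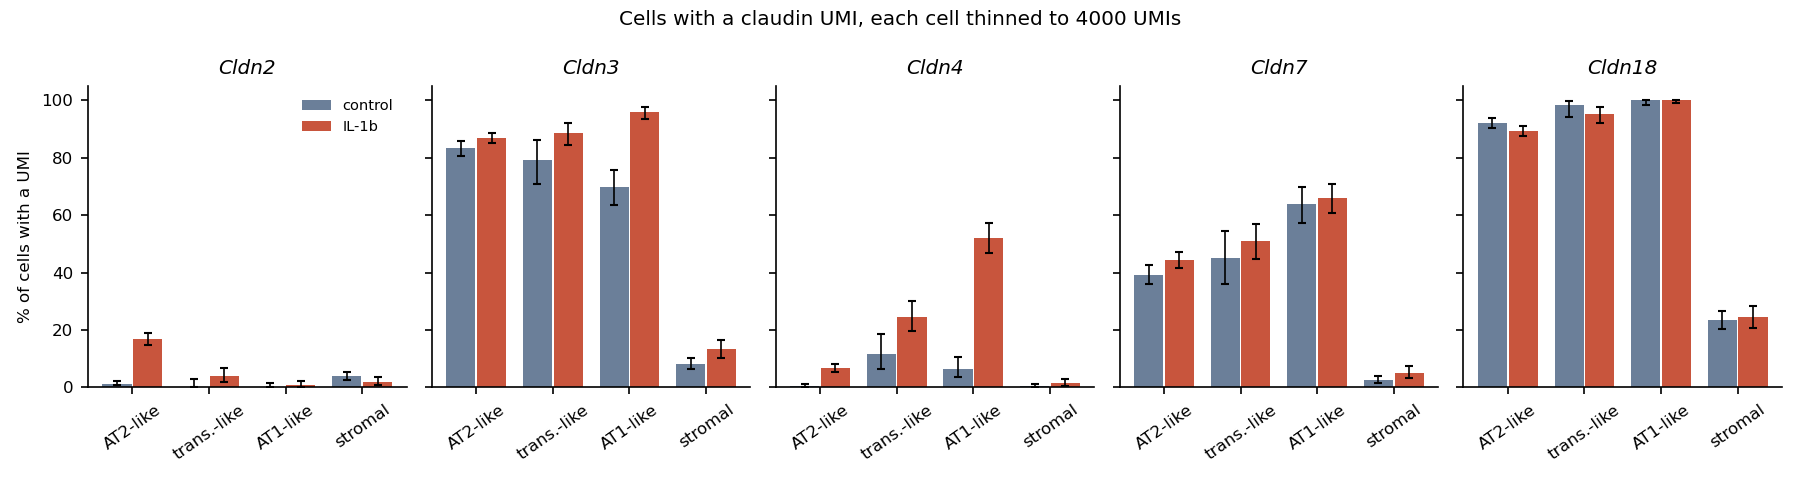
Share of cells with at least 1 UMI of each claudin after every cell was thinned to 4000 UMIs, by class and library, with exact Clopper-Pearson 95% intervals for counting error. Cldn18 is found in nearly every AT1-like cell, Cldn3 in 69.9% of control and 95.9% of IL-1b AT1-like cells, and Cldn2 in 16.8% of IL-1b AT2-like cells.

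Of the other 28 claudins, 5 had at least 100 UMIs over both libraries, 23 had fewer, and 11 of the 28 had none. Cldn12 (923 UMIs) was at 15.3 and 13.6 CPM in AT2-like, 17.8 and 22.0 CPM in transitional-like and 20.4 and 17.8 CPM in AT1-like cells of the control and IL-1b library. Cldn8 (185 UMIs) was at 4.04 and 3.81 CPM in AT2-like and 1.52 and 1.01 CPM in AT1-like cells, and Cldn15 (168 UMIs), a channel-forming claudin, at 2.59 and 2.45 CPM in AT2-like cells. Cldn5 (107 UMIs), the claudin of endothelial cells, had 95 UMIs in IL-1b and 0 in control stromal cells, where the summed level of 4 endothelial markers was 15.7 and 2.72 CPM. Cldn34c1 had 100 UMIs, of which 61 lay in control stromal cells.

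The RNA of other junction genes and of epithelial regulators was read from 4 lists of junction membrane, scaffold, adherens junction and desmosome, and epithelial transcription factor genes. Together 19 of 39 tested genes (48.7%) were over 2-fold higher in AT1-like than in AT2-like cells in each library, where 17.9% of all genes were in the control and 13.5% in the IL-1b library, at median log2 ratios of all genes of 0.40 and 0.35. Lower were 1 of 39 in the control (6.49% of all genes) and 0 in the IL-1b library (5.59%). Of 12 scaffold genes, all tested, 8 were over 2-fold higher in AT1-like than in AT2-like cells in each library, and 0 were lower. Tjp1 was at 33.8 and 223 CPM in AT2-like and AT1-like control cells (6.61-fold) and at 30.5 and 149.5 CPM in the IL-1b library (4.90-fold). Pard6b, of the polarity complex, was 8.05-fold and 9.89-fold higher, and the scaffold Magi3 6.61-fold and 8.14-fold higher. Of 9 junction membrane genes with enough UMIs, 5 in the control and 6 in the IL-1b library were higher and 0 lower. Ocln, which encodes occludin, was 10.2-fold and 10.6-fold higher, F11r (JAM-A) 3.73-fold and 2.58-fold, and Cxadr 3.55-fold and 5.60-fold. In the list around EpCAM, the protease inhibitor gene Spint1 was 2.61-fold and 2.03-fold higher. Of adherens junction and desmosome genes 5 of 13 were higher and 1 lower in the control, and 5 of 14 higher and 0 lower in the IL-1b library, with the plakophilin gene Pkp2 4.98-fold and 5.24-fold higher. Of the epithelial transcription factors, Klf5 was the only one of 5 past 2-fold in the control (2.08-fold higher), and 0 of 4 were in the IL-1b library.

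**Figure D5:**
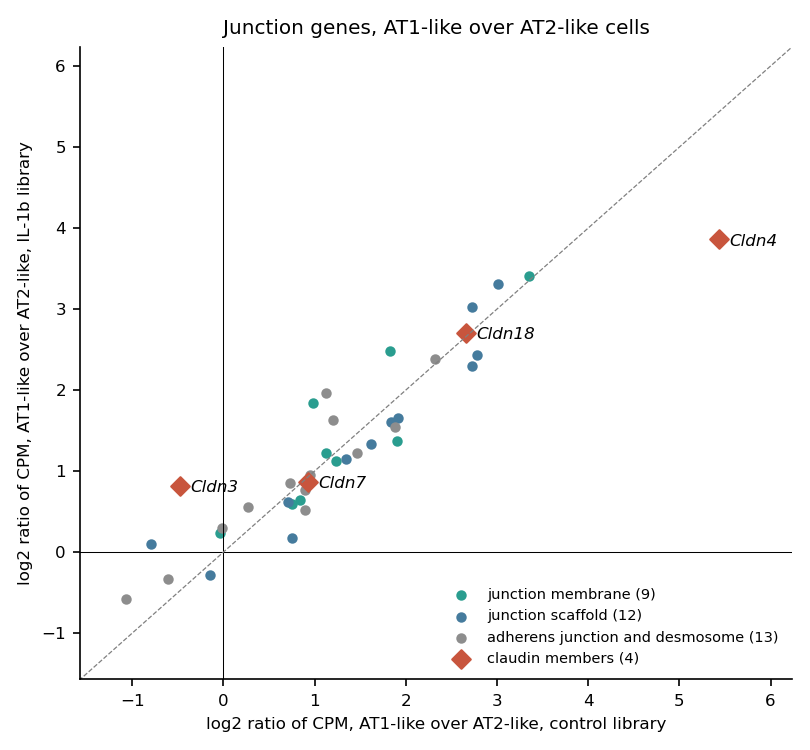
Log2 ratio of the summed CPM, AT1-like over AT2-like cells, in the control library (horizontal) and in the IL-1b library (vertical) for 4 claudins with enough UMIs in both (diamonds), 9 junction membrane, 12 scaffold and 13 adherens junction and desmosome genes (dots), with equal ratios on the dashed line. Cldn18 and Cldn7 lie near the line, Cldn4 is farthest right, and Cldn3 lies above the line at -0.48 and 0.81.

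Between the libraries, 0 of 41 tested genes of these lists were over 2-fold higher in AT2-like cells and 3 (7.32%) were lower, where 5.7% of all genes were higher and 3.28% lower. The adhesion gene Esam (ratio 0.430), Magi3 (0.496) and the transcription factor gene Klf4 (0.437) were lower in the IL-1b library. In transitional-like cells 2 of 33 were higher (6.06%, against 5.71% of all genes) and 0 lower (2.22%). There Tjp3, which encodes the scaffold ZO-3, was 2.45-fold and Elf3, an epithelial transcription factor gene, 2.37-fold higher, and the protease gene Prss8, outside these lists, was lower (ratio 0.414). In AT1-like cells 2 of 37 were higher (5.41%, against 4.1% of all genes) and 0 lower (2.61%). There Tjp3 was 3.44-fold (2.59 to 4.64) and Elf3 2.56-fold (2.03 to 3.26) higher. In transitional-like against AT2-like cells, 6 of 39 genes of these lists were higher in the control (15.4%, against 4.49% of all genes) and 9 of 40 in the IL-1b library (22.5%, against 5.42%), with 0 lower in either. Of these, 3 of 12 scaffold genes were higher in each library, with Magi3 2.55-fold and 2.83-fold. Ocln was 2.40-fold and 3.68-fold higher in that comparison, and Klf4 7.99-fold in the IL-1b library.

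Over the 12 epithelial clusters with at least 30 cells, the genes whose log2(CPM + 1) followed each claudin most closely among 7473 were named as a description. The clusters share 2 libraries and their depth. Cldn2 was followed by Dmkn (r = 0.958) and St8sia6, Cldn4 by Mxd1 (r = 0.956), Sfn and Dclk1, and Cldn18 by Ago4 (r = 0.983), Hspb1 and Sparc. Cldn3 was followed by Pigu (r = 0.852), Muc1 and Tet2, and Cldn7 by Ociad1 (r = 0.951), Dnajb6 and Smarcb1. Among the claudins, Cldn7 and Cldn18 had r = 0.703 and Cldn2 and Cldn18 r = -0.808.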

How the data were processed

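The 2 libraries of organoid cells made with the 10x 3′ kit were analysed. The authors deposited raw UMI counts per gene and barcode, made with Cell Ranger, and GRCm38, mm9 and Scanpy 1.3.6 stand in the submitters' processing notes. The 2101 control barcodes had at least 4605 UMIs (median 14613) and the 3066 IL-1b barcodes at least 4975 (median 11496.5). Barcodes needed over 2000 UMIs and a gene number above 500 and below 7000. Scrublet marked 3 of 5142 cells (0.0583%, under the 0.5% at which it is regarded as having worked), so doublets remain.

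Stromal clusters were set aside, and the other cells were counted as epithelial (1299 control, 2583 IL-1b). They were clustered with scanpy 1.11.5 over 1427 genes (50 principal components, 15 neighbors, Leiden resolution 1.0), without the claudins and junction lists. Clusters were named by the marker list with the largest average log2 fold (pseudocount 0.1) against the remaining epithelial cells of the library that held most of the cluster. A cluster stayed unnamed with fewer than 3 markers up, when mitochondrial genes or markers of another class led it, when its depth was low, or when no cycling or airway marker led a cluster scored as one. The restriction to 1 library and this last condition were set after the clusters had been seen. Scored first against the epithelial cells of both libraries, the unnamed cluster C2 was named transitional-like by a small margin. The members and lists were chosen with earlier results of these data known.

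Counts were summed per class and library and given as CPM with exact Poisson 95% intervals, and ratios with exact conditional binomial intervals. A call was a 2-fold ratio with at least 100 UMIs in the 2 groups, and no test was possible on 1 library per condition. Where a class had 0 counts, its count was set to 3 for the ratio. Intervals cover counting error only. Cells were thinned to 4000 UMIs for shares, which left out 0 cells. Genes were named as the 5 claudins, other claudins with at least 100 UMIs, listed junction genes past 2-fold, and the 3 genes closest to each claudin by Pearson correlation over clusters. Not every such gene is printed, and some are not reported here because they are withheld for evaluation. The ratio code was tested on simulated data. The alternatives varied cell filter, doublets, resolution, clustering and its genes, seed, totals, thinning, stromal signal and fold threshold, and 4 were added after the data were seen.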

Additional observations from a re-analysis of the deposited data

Results flagged for a closer look

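Cldn3 is listed because its class difference had opposite signs in the libraries. The log2 ratio of AT1-like over AT2-like cells was -0.48 in the control (374 against 521 CPM) and 0.81 in the IL-1b library (981 against 558 CPM). With 1 library per condition this difference was not tested. The sign held in each library under all 15 alternatives of the control and all 16 of the IL-1b library, from -0.79 to -0.43 and from 0.56 to 0.86. The alternative without cells of over 0.1% stromal marker UMIs left too few control AT1-like cells to compute and gave the 0.86. AT1-like cells themselves held the stromal marker Sparc at 3527 CPM (control) and 2070 CPM (IL-1b). That alternative is therefore no check on stromal RNA in AT1-like cells. The AT1 markers went the other way from Cldn3 in AT1-like cells, with all 11 lower in the IL-1b library. Of 9 transitional markers, 6 were higher and 3 lower in the IL-1b AT1-like cells. The part of these marker shifts in the Cldn3 difference was not tested.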

How the results depend on the processing

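Of 242 recomputed counts of claudins past 2-fold, 233 stayed within 1.5 times the value given. For transitional-like cells between the libraries, the number higher in the IL-1b library was 0 at a resolution of 2.0 (with 1 lower, Cldn18), 0 with genes centered within libraries, and 2 with no minimum of UMIs. For AT1-like against AT2-like cells it was 1 lower in the control with no minimum of UMIs, and 4 higher in the IL-1b library at 1.5-fold. For transitional-like against AT2-like cells it was 0 higher in the control with each library clustered separately and 1 with each cell thinned, and 1 higher in the IL-1b library at a resolution of 2.0. Cldn4 in transitional-like cells reversed at a resolution of 2.0 (log2 ratio -0.92, 17 control cells) and reached 5.25 with separate clustering. No transitional-like class was found at a resolution of 0.5. The cause of these changes was not tested. In AT2-like cells the Cldn2 ratio lay between 14.1 and 27.9 and the Cldn4 ratio between 16.5 and 43.8, and in AT1-like cells the Cldn3 ratio between 2.32 and 2.85 and the Cldn4 ratio between 5.05 and 11.9. With 1 library per condition, no spread between organoid cultures is known. No paired analysis was possible because each group has 1 library.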
